A study of Mus musculus with 15 samples.

Results

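The genes described here are 10 chemokine ligand genes measured in cultured mouse T helper 2 (Th2) cells: Ccl1, Ccl3, Ccl4, Ccl5, Ccl9, Ccl17, Ccl22, Xcl1, Cxcl2 and Cxcl10. They were chosen by gene name from the 56748 genes of the deposited tables. The study asked what loss of the gene Asb2, which encodes a specificity subunit of a ubiquitin ligase, does to Th2 cells with and without renewed stimulation of the T cell receptor. There were 4 stimulated cKO libraries, 3 non-stimulated cKO libraries, 5 stimulated control libraries and 3 non-stimulated control libraries. The cKO (conditional knockout) cells were VEC-Cre;Asb2fl/fl, in which the VE-cadherin promoter drives Cre recombinase in endothelial cells and blood cell precursors, and the control cells were Asb2fl/fl without Cre, so both genotypes carried the floxed alleles. All cells began as naive CD4+ T cells from spleens of female mice and were made into Th2 cells by 3 days on anti-CD3ε (5 µg/ml) with anti-CD28 (1 µg/ml), interleukin 2 (10 ng/ml), interleukin 4 (40 ng/ml) and anti-interferon gamma (10 µg/ml). In a further 3 days they had 20 ng/ml of each interleukin and no antibody. From day 5, stimulated cells were held for 24 h on coated anti-CD3ε (3 µg/ml) with anti-CD28 (2 µg/ml), and non-stimulated cells were not. The labels give no age of the mice and do not say whether each library came from a separate animal.

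Chemokines are small secreted proteins that direct the movement of cells bearing matching receptors. CCL3, CCL5 and, in mice, CCL9 act on CCR1, and together with CCL4 they draw monocytes, macrophages and activated T cells. CCL1 acts on CCR8, a receptor of Th2 and regulatory T cells. CCL17 and CCL22 act on CCR4, which Th2 cells also carry, and are best known as products of dendritic cells and macrophages. XCL1 acts on XCR1 of cross-presenting dendritic cells, CXCL2 on CXCR2 of neutrophils, and CXCL10, which interferon induces, on CXCR3 of Th1 and CD8 T cells.

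Each library held between 17.1 and 24.2 M estimated counts. Asb2, the targeted gene, was at 9.49 ± 0.115 CPM (counts scaled to library size) in stimulated cKO cells and 33.5 ± 2.72 CPM in stimulated control cells (SD, n = 4 and 5). It was at 19.2 ± 5.62 CPM in non-stimulated cKO cells and 36.7 ± 12.2 CPM in non-stimulated control cells (SD, n = 3 each), so Asb2 RNA remained in both cKO groups. The cell type of the labels was seen in every library: Cd4 was at 342 CPM or more and Gata3, the transcription factor of Th2 cells, at 545 CPM or more. Mitochondrial RNA took 9.43% of the counts in stimulated cKO replicate 3 and 4.36% to 6.24% in each other library.

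The promoters of 3 members that rose strongly on stimulation and of a member that stayed near zero are shown, since T cell receptor signals reach genes through NFAT, AP-1 and NF-kappaB. RefSeq promoter sequences of the GRCm38.p6 build were matched by symbol for 8 of the 10 members, all but Ccl4 and Ccl5. The 250 bases before the gene start are printed 5′ to 3′ on the gene's strand. Capitals mark matches on either strand to the NFAT core GGAAA, the AP-1 motif TGANTCA, the kappaB consensus, or the interferon response pair, which is TTTC, any 2 bases and TTTC again.
Ccl3 (chr11:83649379-83649628, minus strand): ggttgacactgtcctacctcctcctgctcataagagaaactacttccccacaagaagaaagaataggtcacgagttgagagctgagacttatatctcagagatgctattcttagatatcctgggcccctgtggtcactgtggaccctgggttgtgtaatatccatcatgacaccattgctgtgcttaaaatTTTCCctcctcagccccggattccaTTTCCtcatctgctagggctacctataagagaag
Ccl9 (chr11:83578637-83578886, minus strand): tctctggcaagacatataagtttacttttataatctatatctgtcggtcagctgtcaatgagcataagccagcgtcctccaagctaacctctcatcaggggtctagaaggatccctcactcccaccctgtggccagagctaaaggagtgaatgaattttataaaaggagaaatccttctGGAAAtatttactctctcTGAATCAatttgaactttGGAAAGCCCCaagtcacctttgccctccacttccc
Cxcl2 (chr5:90903649-90903898, plus strand): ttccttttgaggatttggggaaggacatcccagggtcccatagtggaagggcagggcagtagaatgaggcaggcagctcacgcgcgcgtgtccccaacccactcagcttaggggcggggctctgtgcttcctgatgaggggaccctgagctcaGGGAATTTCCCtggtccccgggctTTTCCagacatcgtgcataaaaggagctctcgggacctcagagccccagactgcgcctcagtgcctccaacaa
Cxcl10 (chr5:92348890-92349139, minus strand): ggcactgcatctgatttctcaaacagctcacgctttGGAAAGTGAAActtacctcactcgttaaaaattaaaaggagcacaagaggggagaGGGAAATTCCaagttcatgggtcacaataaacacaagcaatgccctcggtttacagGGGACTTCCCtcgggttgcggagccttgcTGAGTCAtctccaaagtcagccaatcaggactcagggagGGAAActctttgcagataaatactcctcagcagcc
The Ccl3 window held 2 NFAT cores and none of the other motifs. The Ccl9 window held 2 NFAT cores, 1 AP-1 motif and 1 kappaB match, and the kappaB match overlapped an NFAT core. The Cxcl2 window held 2 NFAT cores and 2 kappaB matches that overlapped each other and an NFAT core. The Cxcl10 window held 3 NFAT cores, 1 AP-1 motif, 2 kappaB matches and 1 interferon response pair, with 1 NFAT core overlapping a kappaB match and another the interferon response pair. Cxcl10 had almost no counts in these cells. Among the windows not printed, Ccl1 held 3 NFAT cores, Ccl17 and Xcl1 held 1 each, and Ccl22 held no match. Of 32841 promoters of this length, 55.6% held an NFAT core, 6.75% the AP-1 motif, 3.9% a kappaB match and 2.98% the interferon response pair. A match describes letters, not binding.

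Stimulation raised 6 of the 10 genes in both genotypes: Ccl1, Ccl3, Ccl4, Ccl5, Ccl9 and Cxcl2. Calls needed an adjusted p under 0.05 (edgeR quasi-likelihood test, Benjamini-Hochberg adjusted over 15619 tested genes), and 7 members were tested. Ccl17, Xcl1 and Cxcl10 had too few counts to be tested, and Ccl1, Ccl9 and Cxcl2 passed the filter on low counts through their stimulated libraries. No member fell. Over all genes tested, 26.7% were called higher and 27.1% lower in cKO cells (53.8% in all), and 25.4% higher and 25.2% lower in control cells (50.6% in all). These are bulk cultures, so more cells making a ligand and more RNA per cell cannot be told apart.

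**Figure D1:**
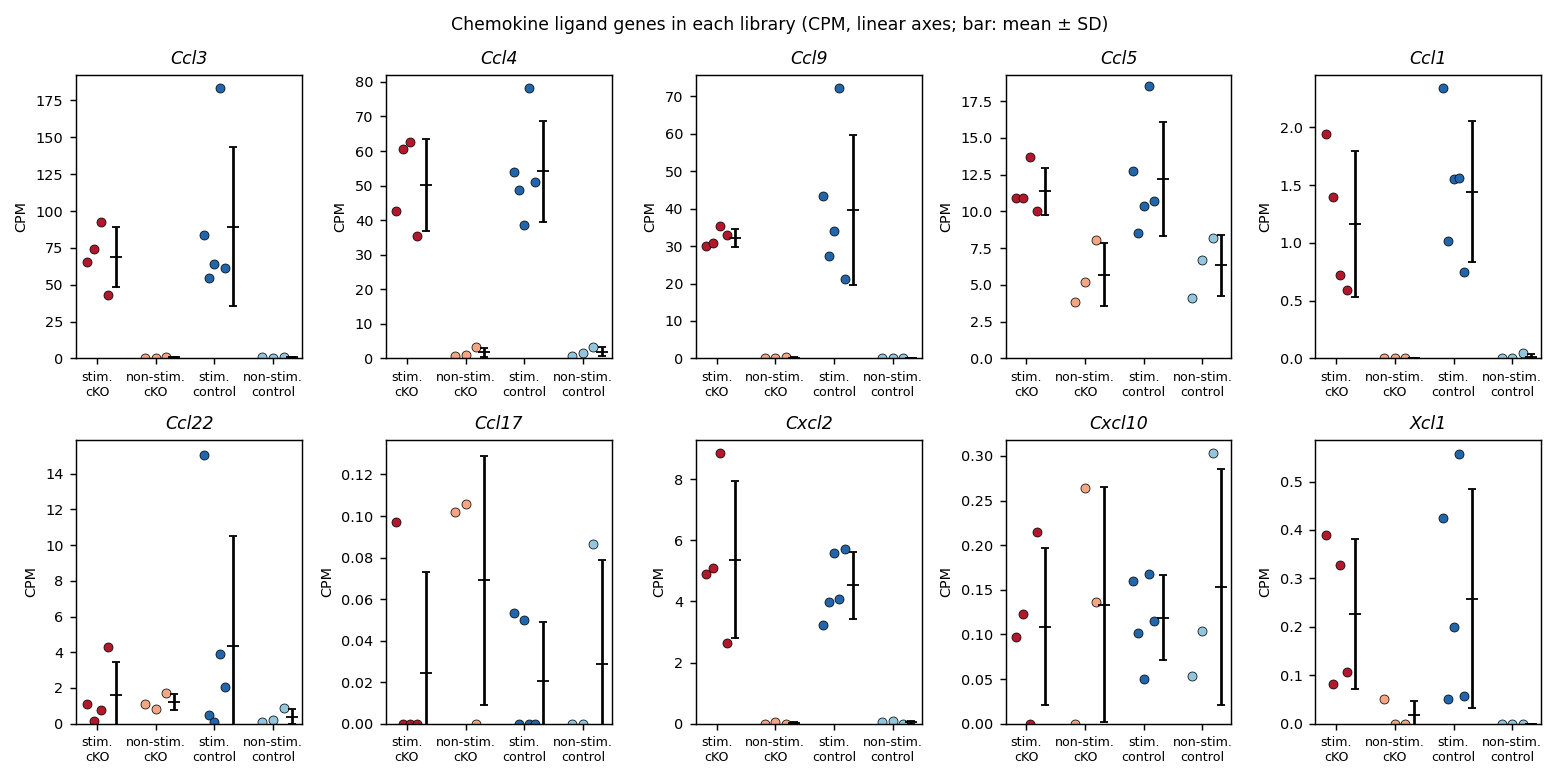
Each panel plots 1 ligand gene on a linear CPM axis, with a point for each library in stimulated cKO, non-stimulated cKO, stimulated control and non-stimulated control cells, and a bar for the mean ± SD. Ccl3, Ccl4, Ccl9, Ccl5, Ccl1 and Cxcl2 stand higher in all stimulated libraries than in the non-stimulated ones of the same genotype, and stimulated control replicate 4 is the top point for Ccl3 at 183 CPM.

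Among the CC chemokines Ccl3, Ccl4, Ccl5 and Ccl9, Ccl3 (ENSMUSG00000000982) had the highest mean level after stimulation. Ccl3 was at 65.3, 74.4, 92.7 and 43.1 CPM in stimulated cKO libraries, against 0.509, 0.475 and 1.22 CPM in non-stimulated cKO libraries. It was at 83.8, 54.5, 64.3, 183 and 61.3 CPM in stimulated control libraries, against 0.642, 0.465 and 0.908 CPM in non-stimulated control libraries. Every stimulated library lay far above every non-stimulated one. The log2 fold change of Ccl3 was 6.50 ± 0.63 in cKO cells (SE, edgeR adjusted p = 3.06e-06) and 7.02 ± 0.63 in control cells (adjusted p = 1.68e-06).

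Ccl4 (ENSMUSG00000018930) was at 42.5, 60.4, 62.5 and 35.4 CPM in stimulated cKO libraries and 0.815, 1.11 and 3.31 CPM in non-stimulated cKO libraries. In control cells Ccl4 was at 53.9, 48.8, 38.5, 78.2 and 51.1 CPM with stimulation and 0.749, 1.60 and 3.37 CPM without. The groups did not overlap, and replicate 3 was highest among the non-stimulated libraries of each genotype. The log2 fold change of Ccl4 was 4.81 ± 0.50 in cKO cells (SE, edgeR adjusted p = 4.84e-06) and 4.78 ± 0.49 in control cells (adjusted p = 4.13e-06).

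Ccl9 (ENSMUSG00000019122) was almost silent without stimulation. It was at 29.9, 30.8, 35.4 and 32.9 CPM in stimulated cKO libraries, against 0, 0.211 and 0.318 CPM in non-stimulated cKO libraries. It was at 43.2, 27.5, 33.9, 72.2 and 21.3 CPM in stimulated control libraries, against 0.214, 0.0517 and 0.0865 CPM in non-stimulated control libraries. The stimulated cKO libraries lay close together, and the stimulated control libraries spread more widely. The log2 fold change of Ccl9 was 7.43 ± 0.61 in cKO cells (SE, edgeR adjusted p = 3.82e-07) and 8.36 ± 0.64 in control cells (adjusted p = 1.96e-07), over only 11 counts in all non-stimulated cKO and 7 in all non-stimulated control libraries.

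Ccl5 (ENSMUSG00000035042) had the highest resting mean of these 4 genes and the smallest log2 fold change. It was at 10.9, 10.9, 13.7 and 10.0 CPM in stimulated cKO libraries, against 3.87, 5.23 and 8.03 CPM in non-stimulated cKO libraries. It was at 12.8, 8.50, 10.4, 18.6 and 10.7 CPM in stimulated control libraries, against 4.12, 6.67 and 8.18 CPM in non-stimulated control libraries. The groups came near each other but did not overlap. The log2 fold change of Ccl5 was 0.99 ± 0.28 in cKO cells (SE, edgeR adjusted p = 0.00784) and 0.94 ± 0.27 in control cells (adjusted p = 0.00866). The control call was lost without non-stimulated control replicate 1 (log2 fold change 0.71, edgeR adjusted p = 0.0533).

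Ccl1 (ENSMUSG00000020702), the CCR8 ligand, went with Ccl9 in being nearly absent at rest but reached far lower levels. It was at 1.94, 1.39, 0.721 and 0.591 CPM in stimulated cKO libraries, 96 counts in all, against 0 counts in the 3 non-stimulated cKO libraries. It was at 2.34, 1.01, 1.55, 1.56 and 0.751 CPM in stimulated control libraries, 136 counts in all, against 1 count in non-stimulated control cells. Against a floor of 3 counts over the group, Ccl1 was at least 23.5-fold higher in stimulated than in non-stimulated cKO cells (edgeR adjusted p = 2.08e-05). In control cells the ratio of summed counts was 88.7 (exact 95% binomial interval 15.6 to 3527, edgeR adjusted p = 1.78e-05).

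Cxcl2 (ENSMUSG00000058427), the CXCR2 ligand, was at 4.91, 5.08, 8.85 and 2.63 CPM in stimulated cKO libraries, against 1 count in all non-stimulated cKO libraries. It was at 3.24, 3.998, 5.60, 4.07 and 5.72 CPM in stimulated control libraries, against 3 counts in all non-stimulated control libraries. Its highest library was stimulated cKO replicate 3, which also had the highest mitochondrial share, and without it the stimulated cKO mean was 4.21 ± 1.37 CPM against 5.37 ± 2.57 CPM with it (SD, n = 3 and 4). The ratio of summed counts was 315 in cKO cells (exact 95% binomial interval 56.2 to 12457, edgeR adjusted p = 8.42e-08). In control cells it was 92.1 (31.3 to 449, edgeR adjusted p = 1.71e-07).

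**Figure D2:**
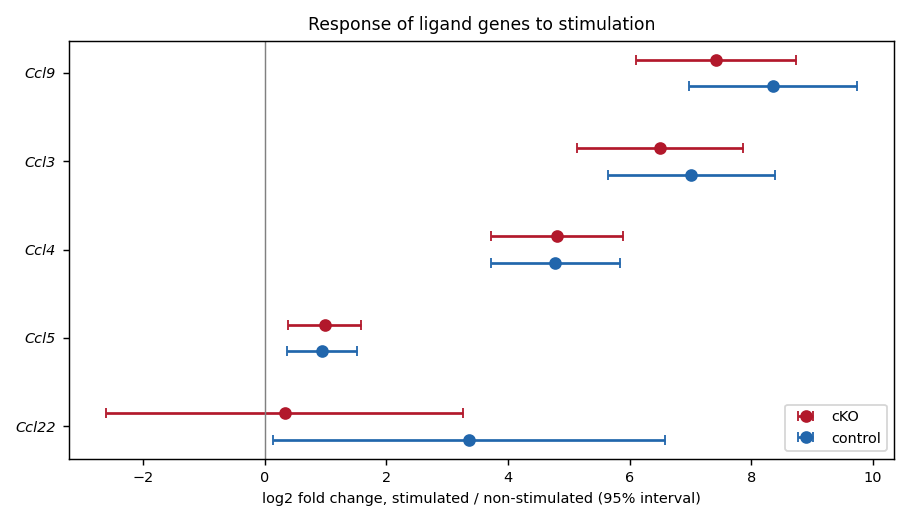
Points are log2 fold changes of stimulated over non-stimulated cells with 95% intervals, for cKO (red, upper) and control (blue, lower); Ccl1 and Cxcl2 are left out because they had 0 to 3 counts at rest. Ccl9, Ccl3 and Ccl4 lie between 4.78 and 8.36, Ccl5 lies near 1, and the Ccl22 interval in cKO cells spans 0.

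No CCR4 ligand was called. Ccl22 (ENSMUSG00000031779) was at 1.12, 0.123, 0.786 and 4.30 CPM in stimulated cKO libraries and 1.12, 0.845 and 1.72 CPM in non-stimulated cKO libraries. It was at 15.1, 0.506, 0.100, 3.90 and 2.08 CPM in stimulated control libraries and 0.107, 0.207 and 0.865 CPM in non-stimulated control libraries. The groups overlapped in each genotype, and the stimulated libraries of 1 group differed among themselves by up to 151-fold. The log2 fold change of Ccl22 was 0.33 ± 1.34 in cKO cells (SE, edgeR adjusted p = 0.853) and 3.37 ± 1.47 in control cells (adjusted p = 0.0769). In control cells the call depended on the tool and on 1 library: it was made by DESeq2 (3.45, adjusted p = 0.0137) and without stimulated control replicate 3 (3.70, edgeR adjusted p = 0.0369). In cKO cells the difference turned to -0.90 without stimulated cKO replicate 4. Ccl17 (ENSMUSG00000031780) had 2, 4, 2 and 2 counts in stimulated cKO, non-stimulated cKO, stimulated control and non-stimulated control cells, so that a difference was not detectable at this depth.

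Levels of Ccl22 moved with B cell markers among the stimulated libraries. Stimulated control replicate 1, with the highest Ccl22 level, had 8.78 CPM summed over 7 B cell markers, the highest sum of any library, with Pax5 at 2.29 CPM. Stimulated cKO replicate 4, next in Ccl22, had a sum of 4.14 CPM. The sum ran from 1.39 to 4.14 CPM in stimulated cKO, 4.06 to 7.28 CPM in non-stimulated cKO, 1.95 to 8.78 CPM in stimulated control and 1.91 to 4.59 CPM in non-stimulated control libraries. All 7 markers had counts, and of the 5 tested 0 were called with stimulation in either genotype. Over all tested genes 53.8% were called in cKO and 50.6% in control cells. The median log2 fold change of the 5 markers was -1.18 in cKO and 0.20 in control cells, so the lack of a call does not show unchanged levels. The part of B cells in the Ccl22 values was not tested. Without stimulated cKO replicate 4 and stimulated control replicate 1, Ccl22 averaged 0.676 ± 0.507 CPM in stimulated cKO and 1.65 ± 1.73 CPM in stimulated control cells (SD, n = 3 and 4).

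Some markers of dendritic cells and macrophages, known sources of CCL22 and CCL17, changed with stimulation. Of 10 dendritic cell markers 7 had counts and 5 were tested, of which Flt3, Zbtb46 and Batf3 rose and Itgax fell in each genotype. Among all tested genes, 26.7% rose and 27.1% fell in cKO cells, and 25.4% rose and 25.2% fell in control cells. Batf3 was at 14.7 ± 2.18 CPM in stimulated cKO against 5.46 ± 3.17 CPM in non-stimulated cKO cells, and at 18.9 ± 5.06 CPM in stimulated control against 8.14 ± 4.26 CPM in non-stimulated control cells. Zbtb46 was at 2.80 ± 0.895 CPM in stimulated cKO against 0.350 ± 0.0752 CPM in non-stimulated cKO cells. Clec9a, Siglech and Cd209a had no count in any library, and Xcr1 had 1 count in the series. The summed dendritic cell markers, mostly Ccr7, which T cells also express, ran from 86.4 to 107 CPM in stimulated cKO, 52.9 to 98.9 CPM in non-stimulated cKO, 70.1 to 98.4 CPM in stimulated control and 81.5 to 93.6 CPM in non-stimulated control libraries. Adgre1 and Ly6c2 fell in each genotype among the 3 macrophage and monocyte markers tested. Of all 10 such markers 9 had counts, all but Lyz2, with Csf1r at no more than 1 count in any library. Their sum was 7.47 to 15.6 CPM in stimulated cKO against 41.2 to 60.7 CPM in non-stimulated cKO libraries, and 9.26 to 27.0 CPM in stimulated control against 36.8 to 118 CPM in non-stimulated control libraries. The part of these cells in the ligand values was not tested.

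**Figure D3:**
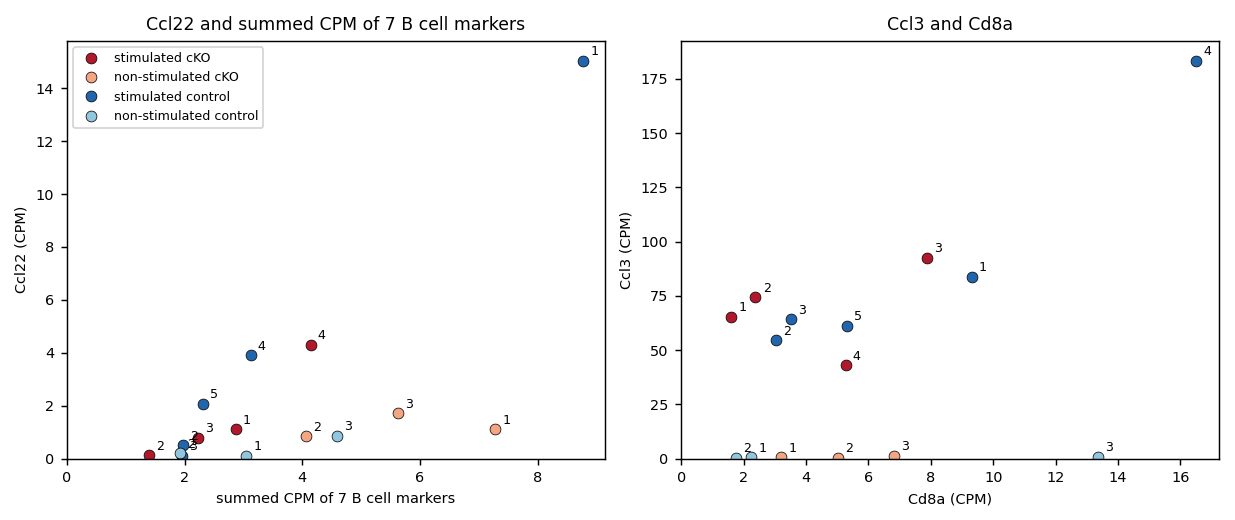
Points are libraries, numbered by replicate and coloured by group, with CPM on both axes: the left panel sets Ccl22 against the summed level of 7 B cell markers, the right panel Ccl3 against Cd8a. Stimulated control replicate 1 stands apart at the top right of the left panel (Ccl22 at 15.1 CPM, markers at 8.78 CPM) and replicate 4 at the top right of the right panel (Ccl3 at 183 CPM, Cd8a at 16.5 CPM).

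Xcl1 and Cxcl10 stayed close to the limit of detection. Xcl1 (ENSMUSG00000026573) had 17 counts over the stimulated cKO libraries, 2 to 8 in each, and 1 count in non-stimulated cKO cells, a ratio of 13.1 (exact 95% binomial interval 2.05 to 547). It had 24 counts over the stimulated control libraries, 1 to 10 in each, and 0 in non-stimulated control cells, at least 5.26-fold higher against the floor of 3 counts. The stimulated and non-stimulated groups of Xcl1 did not overlap in either genotype, which was also true of 54.1% of genes tested in cKO and 47.9% in control cells. Cxcl10 (ENSMUSG00000034855) had 9, 8, 11 and 10 counts in stimulated cKO, non-stimulated cKO, stimulated control and non-stimulated control cells, and its groups overlapped. Cxcl10 thus stayed near zero in the same libraries in which Ifng, the gene of the cytokine that induces it, rose: 63.8 ± 27.9 CPM in stimulated cKO against 0.849 ± 0.268 CPM in non-stimulated cKO cells (SD, n = 4 and 3), and 85.0 ± 65.7 CPM in stimulated control against 0.953 ± 0.786 CPM in non-stimulated control cells (SD, n = 5 and 3).

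The make-up of the ligand RNA differed between stimulated and resting cells. On the TPM scale, which also corrects for transcript length, the 10 ligands summed to 309 ± 64.6 TPM in stimulated cKO and 26.6 ± 11.5 TPM in non-stimulated cKO cells (SD, n = 4 and 3). In control cells the sum was 397 ± 199 TPM with stimulation and 25.5 ± 9.29 TPM without (SD, n = 5 and 3). Ccl5 held 10.5% to 14.7% of the sum in stimulated cKO against 70.8% to 79.1% in non-stimulated cKO libraries, and 9.58% to 12.3% in stimulated control against 71.8% to 81.3% in non-stimulated control libraries. Ccl3 held 34.7% to 42.1% in stimulated cKO against 3.98% to 5.97% in non-stimulated cKO libraries, and 36.7% to 52.2% in stimulated control against 3.14% to 6.99% in non-stimulated control libraries. Among these 10 ligands, resting Th2 cultures therefore held mainly Ccl5 RNA and stimulated ones mainly Ccl3 and Ccl4 RNA. The shares depend on the 10 genes chosen. Outside them, Cxcl3 averaged 91.3 TPM in stimulated cKO and 81.5 TPM in stimulated control cells. Ccl25 averaged 13.2 TPM in non-stimulated cKO and 10.1 TPM in non-stimulated control cells. Markers of other cell types differed between the same groups. The summed NK cell markers, cells that also make CCL5, were at 13.3 to 27.2 CPM in stimulated cKO against 37.1 to 81.6 CPM in non-stimulated cKO libraries, and at 13.5 to 39.9 CPM in stimulated control against 44.6 to 149 CPM in non-stimulated control libraries. All 8 NK cell markers had counts in the series, though Ncr1 had at most 8 and Klra8 at most 2 in any library. Of the 5 tested, Eomes, Klrb1c and Tyrobp fell in each genotype, against 27.1% of all tested genes in cKO and 25.2% in control cells. Eomes held 24.4 to 57.1 CPM of the resting sum in cKO and 30.5 to 99.2 CPM in control libraries. Activated T cells can also express Eomes and Klrk1. Klrk1 ran from 4.57 to 10.0 CPM in stimulated and 4.07 to 5.63 CPM in non-stimulated cKO libraries. In control libraries Klrk1 ran from 4.45 to 11.4 CPM with stimulation and 5.58 to 7.66 CPM without. The 5 CD8 T cell markers summed to 96.7 to 126 CPM in stimulated cKO against 104 to 153 CPM in non-stimulated cKO libraries. In control libraries the sum was 103 to 169.9 CPM with stimulation and 137 to 214 CPM without. CD8 T cells make CCL5 too. Runx3 made up most of this sum in every library. Of the 4 tested, 1 rose and 1 fell in each genotype. Crtam ran from 9.02 to 12.3 CPM in stimulated against 1.21 to 1.54 CPM in non-stimulated cKO libraries. In control libraries Crtam ran from 8.50 to 21.1 CPM with stimulation and 0.963 to 2.86 CPM without. Mast cell and basophil markers, 7 of 8 with counts and none for Tpsb2, were at 0.583 to 1.35 CPM in stimulated cKO against 4.02 to 15.2 CPM in non-stimulated cKO libraries, and at 0.372 to 0.725 CPM in stimulated control against 3.53 to 7.34 CPM in non-stimulated control libraries. The part of these cells in the shares was not tested. The ratio of Ccl4 to Ccl3 in TPM had a median of 0.935 in stimulated cKO and 2.94 in non-stimulated cKO libraries, and 0.810 in stimulated control and 4.33 in non-stimulated control libraries.

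**Figure D4:**
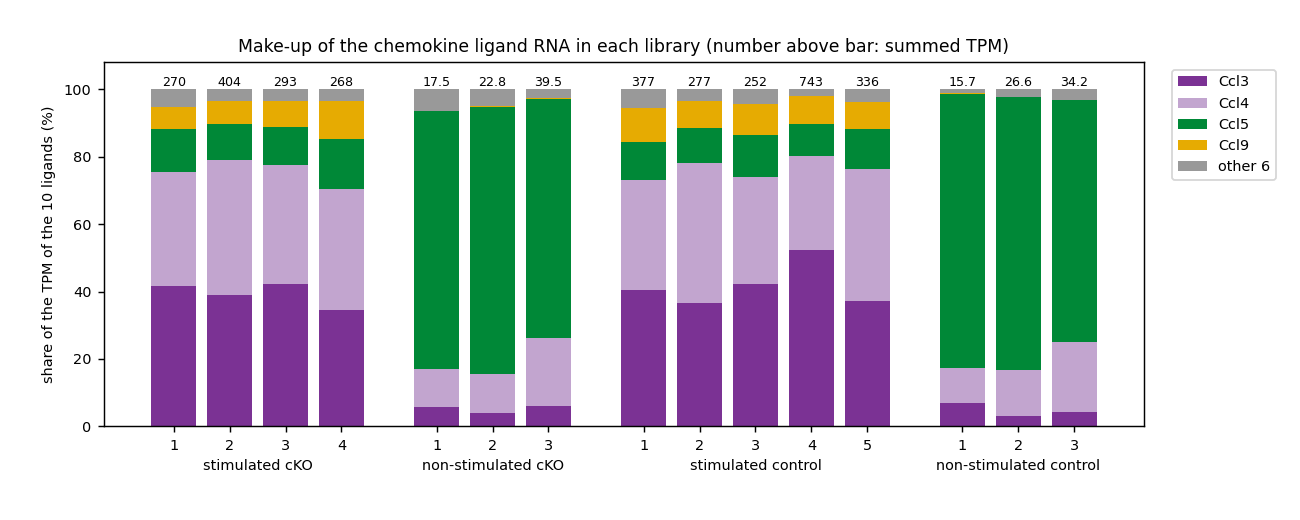
Stacked bars give the share (%) of the summed TPM of the 10 ligands held by Ccl3, Ccl4, Ccl5, Ccl9 and the other 6 in each library, with the summed TPM above each bar. Ccl5 fills 70.8% or more of every non-stimulated bar and 14.7% or less of every stimulated bar.

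The order of mean TPM in stimulated cells was the same in both genotypes for all 10 genes. In stimulated cKO cells it ran Ccl3 (122 TPM), Ccl4 (113), Ccl5 (37.0), Ccl9 (24.8), Cxcl2 (5.97), Ccl1 (4.09), Ccl22 (0.815), Xcl1 (0.705), Cxcl10 (0.108) and Ccl17 (0.0808). In stimulated control cells the same order held, with Ccl3 at 175 TPM, Ccl4 at 132 TPM, Ccl5 at 42.5 TPM and Ccl9 at 33.9 TPM. Set side by side within each library, Ccl4 lay above Ccl5, Ccl5 above Ccl9, Ccl9 above Cxcl2, Ccl1 above Ccl22 and Xcl1 above Cxcl10 in 4 of 4 stimulated cKO and 5 of 5 stimulated control libraries. Ranges over libraries still overlapped between Ccl1 and Ccl22 in both genotypes, and between Ccl5 and Ccl9 and between Xcl1 and Cxcl10 in stimulated control cells. The other neighbours were not separated by range or within libraries. Ccl3 lay above Ccl4 in 2 of 4 stimulated cKO and 3 of 5 stimulated control libraries, and Cxcl2 above Ccl1 in 3 of 4 and 3 of 5. Ccl22 lay above Xcl1 in 1 of 4 and 3 of 5, and Cxcl10 above Ccl17 in 2 of 4 and 3 of 5. At rest the order began with Ccl5 (19.8 TPM), Ccl4 (4.23), Ccl3 (1.42) and Ccl22 (0.616) in non-stimulated cKO cells and with Ccl5 (19.6), Ccl4 (4.08), Ccl3 (1.14) and Ccl22 (0.173) in non-stimulated control cells.

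No ligand was called between cKO and control cells. In the comparison of cKO with control cells, 0 of the 7 tested members were called, with or without stimulation, and the call rate over all genes was 0.0064% (1 gene) after stimulation and 0% without. At an unadjusted p under 0.05 there were 283 genes after stimulation and 402 without, and DESeq2 called 5 and 4. All members overlapped between genotypes in both conditions, where 0.659% of all tested genes did not overlap after stimulation and 7.86% without. The log2 fold changes of stimulated cKO over stimulated control cells, with 95% intervals, were -0.38 (-1.15 to 0.39) for Ccl3, -0.11 (-0.81 to 0.59) for Ccl4, -0.10 (-0.60 to 0.41) for Ccl5 and -0.30 (-0.93 to 0.33) for Ccl9. They were -0.29 (-1.13 to 0.55) for Ccl1, 0.24 (-0.37 to 0.85) for Cxcl2 and -1.47 (-3.91 to 0.98) for Ccl22. The intervals of the members other than Ccl22 reached as far as -1.15 on the log2 scale in the stimulated comparison, and each adjusted p was 1 (edgeR).

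The small negative values of Ccl3, Ccl4, Ccl5 and Ccl9 after stimulation changed sign when 1 control library was left out. Stimulated control replicate 4 was the highest of 9 stimulated libraries for Ccl3, Ccl4, Ccl5, Ccl9 and Xcl1. Without it, the cKO minus control log2 differences were 0.06 for Ccl3, 0.06 for Ccl4, 0.10 for Ccl5 and 0.03 for Ccl9. Ccl4 was also at 0.03 without stimulated cKO replicate 4, and Cxcl2 at -0.10 without stimulated cKO replicate 3. Without stimulated control replicate 4 the Ccl3 mean of stimulated control cells was 66.0 ± 12.6 CPM, against 89.5 ± 53.7 CPM with it (SD, n = 4 and 5). That of Ccl9 was 31.5 ± 9.37 CPM against 39.6 ± 19.9 CPM. Stimulated cKO replicate 3, with the highest mitochondrial share, was the highest stimulated cKO library for Ccl3, Ccl4, Ccl5 and Ccl9. Without it the stimulated cKO mean of Ccl3 was 61.0 ± 16.1 CPM (SD, n = 3). The differences without stimulated control replicate 4 kept this cKO library, and the 2 were not left out together. Stimulated control replicate 4 also had the highest Ifng (195 CPM), Cd8a (16.5 CPM), Eomes (13.0 CPM) and Fcer1g (12.3 CPM) of the stimulated libraries. Summed over 8 NK cell markers it had 39.9 CPM, against 13.5 to 21.2 CPM in the other stimulated control libraries and 13.3 to 27.2 CPM in stimulated cKO libraries. Over 5 CD8 T cell markers the sum was 169.9 CPM there, against 96.7 to 140.4 CPM in the other stimulated libraries. The NK cell sum came mainly from Eomes, Fcer1g and Klrk1 (11.4 CPM), and activated T cells can also express Eomes and Klrk1. In that library the NK cell genes Ncr1 and Klra8 had 0 counts, and Klre1 was at 0.279 CPM, within the 0.100 to 0.520 CPM of the group. The NK cell genes Klrb1c (2.01 CPM) and Tyrobp (1.00 CPM) were at their highest of the 9 stimulated libraries there. Next for both was stimulated cKO replicate 3, at 1.97 and 0.393 CPM. The CD8 T cell sum came mainly from Runx3 (120 CPM), and Cd8b1 was at 12.3 CPM, against 13.2 CPM in stimulated control replicate 1. Runx3 and Crtam (21.1 CPM) were also highest there among the stimulated libraries, with Crtam at 20.2 CPM in stimulated control replicate 1. The part of such cells in the ligand levels was not tested.

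**Figure D5:**
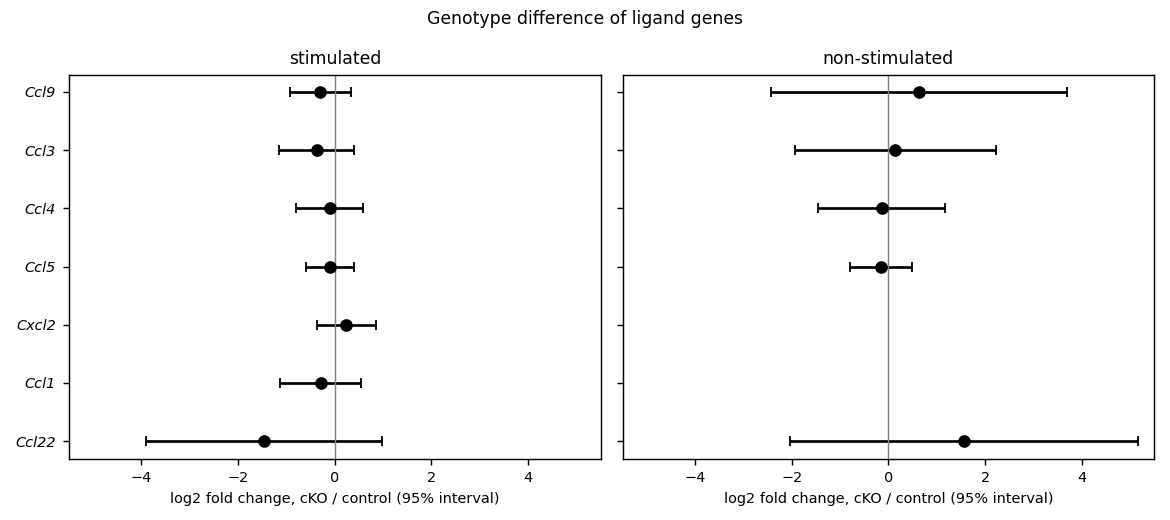
Points are log2 fold changes of cKO over control cells with 95% intervals, with stimulated cells in the left panel and non-stimulated cells in the right; Ccl1 and Cxcl2 are left out of the right panel for lack of counts. Each interval includes 0, and that of Ccl22 is the widest in the stimulated panel (-3.91 to 0.98).

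Without stimulation the cKO minus control log2 differences were 0.14 (95% interval -1.94 to 2.22) for Ccl3, -0.14 (-1.45 to 1.17) for Ccl4, -0.15 (-0.79 to 0.50) for Ccl5, 0.63 (-2.44 to 3.70) for Ccl9 and 1.57 (-2.03 to 5.17) for Ccl22. Of these, Ccl5 was measured with the narrowest interval. Ccl1 had 0 and 1 counts and Cxcl2 1 and 3 counts in non-stimulated cKO and non-stimulated control cells, too few for a fold. The signs turned with 1 library left out: Ccl3 was at -0.47 without non-stimulated cKO replicate 3 and -0.06 without non-stimulated control replicate 2, and Ccl9 at -0.14 without non-stimulated cKO replicate 3. Without non-stimulated control replicate 3, Ccl4 was at 0.60 and Ccl5 at 0.08, and without non-stimulated cKO replicate 1 they were at 0.20 and 0.07. Ccl4 was at 0.09 without non-stimulated cKO replicate 2, and both genes turned on the TPM scale with 0.1 added (0.02 for Ccl4). Non-stimulated replicate 3 was the highest of its group for Ccl4, Ccl5 and the NK cell markers in each genotype (81.6 CPM of markers in cKO, 149 CPM in control), of which Eomes made up 57.1 and 99.2 CPM. The difference between the stimulation responses, cKO minus control, was -0.52 (-2.75 to 1.71) for Ccl3, 0.03 (-1.44 to 1.50) for Ccl4, 0.05 (-0.77 to 0.87) for Ccl5, -0.93 (-4.09 to 2.23) for Ccl9 and -3.03 (-7.37 to 1.30) for Ccl22. No member and no gene was called for that difference (0% of genes tested, 605 at an unadjusted p under 0.05, edgeR adjusted p of members 0.997 to 1, DESeq2 2 genes), so a differing response of Ccl22 in the genotypes was not shown.

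Among 28 other chemokine ligands 16 had a count, 6 were tested, and 3 rose in each genotype while 0 fell. Those 3, Cxcl3, Cxcl5 and Ccl7, passed the filter on low counts through their stimulated libraries, so the filter itself favoured a rise. By comparison, 26.7% of all tested genes rose and 27.1% fell in cKO cells, and 25.4% and 25.2% in control cells. Counts over 6 genes do not set these other ligands apart. Cxcl3, another CXCR2 ligand, was the most abundant of them after stimulation and lies in the same gene cluster as Cxcl2. Cxcl3 was at 78.1 ± 18.2 CPM in stimulated cKO against 0.465 ± 0.0600 CPM in non-stimulated cKO cells, and at 65.6 ± 12.3 CPM in stimulated control against 0.788 ± 0.818 CPM in non-stimulated control cells. Its log2 fold change was 7.38 ± 0.44 in cKO and 6.28 ± 0.40 in control cells (SE, edgeR adjusted p = 1.68e-08 and 2.61e-08), and the difference of 1.099 between them had an adjusted p of 0.997. Cxcl5, also a CXCR2 ligand, averaged 4.09 CPM in stimulated cKO and 3.70 CPM in stimulated control cells, with 3 and 4 counts in all non-stimulated libraries of each genotype (edgeR adjusted p = 4.99e-08 and 6.29e-08). Ccl7, a ligand of CCR1, CCR2 and CCR3, had 48 counts in stimulated cKO against 0 in non-stimulated cKO cells and 61 in stimulated control against 1 in non-stimulated control cells (edgeR adjusted p = 3.84e-04 and 6.77e-04). Ccl25, a ligand of CCR9, was at 20.5 ± 4.69 CPM in stimulated cKO against 26.3 ± 1.24 CPM in non-stimulated cKO cells and at 22.7 ± 3.41 CPM in stimulated control against 21.8 ± 1.08 CPM in non-stimulated control cells and was not called (edgeR adjusted p = 0.0568 and 0.760). Ccl27a and Cxcl12 were tested and not called either. Ccl6, Ccl20, Ccl24, Ccl28, Cxcl1, Cxcl13, Cxcl16, Cx3cl1, Pf4 and Ppbp had counts too low to be tested. Cxcl9 and Cxcl11, like Cxcl10 ligands of CXCR3, had no count in any library.

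In the gene order of the GRCm38.p6 annotation, Ccl5, Ccl9, Ccl6, Ccl3 and Ccl4 follow each other on chromosome 11. Of these 5 neighbours, Ccl6 was the exception, with 7, 5, 6 and 5 counts in stimulated cKO, non-stimulated cKO, stimulated control and non-stimulated control cells. Ccl11, Ccl12 and Ccl8 come before Ccl1 on the same chromosome and had no count. On chromosome 5, Cxcl15 (no count) and Cxcl1 (1 count in all) lie between Cxcl3 and Cxcl2, both of which rose. On chromosome 8, Cx3cl1 lies between Ccl22 and Ccl17 and had 12 counts in stimulated cKO and 5 in stimulated control cells, against 1 in each non-stimulated group.

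Of 9 receptor genes 6 were tested: 1 rose and 2 fell in cKO cells, and 1 rose and 3 fell in control cells. Over all genes tested 26.7% were higher and 27.1% lower in cKO cells and 25.4% and 25.2% in control cells, and counts over 6 genes do not set the receptors apart from these. Ccr8, the CCL1 receptor, was at 114 ± 22.6 CPM in stimulated cKO against 50.2 ± 15.4 CPM in non-stimulated cKO cells, and at 107 ± 18.7 CPM in stimulated control against 55.8 ± 16.6 CPM in non-stimulated control cells (log2 fold changes 1.19 ± 0.25 and 0.93 ± 0.24, edgeR adjusted p = 0.00112 and 0.00473). Ccr8 thus rose together with Ccl1. Cxcr2, the receptor of CXCL2, fell by 3.44 ± 0.31 on the log2 scale in cKO cells (edgeR adjusted p = 8.45e-08) and by 3.25 ± 0.28 in control cells (adjusted p = 4.76e-08). Cxcr3 fell by 1.35 ± 0.41 in cKO cells (edgeR adjusted p = 0.0106) and by 1.04 ± 0.38 in control cells (adjusted p = 0.0294). Ccr4, the receptor of CCL17 and CCL22, fell by 0.36 ± 0.10 in control cells (edgeR adjusted p = 0.00583) and had -0.19 ± 0.11 in cKO cells (adjusted p = 0.144), but the difference between these was not called (adjusted p = 0.997). Ccr1 and Ccr3 were not called, and Xcr1 had 1 count in the series. The median log2 fold change of the 6 receptors was 0.17 in cKO and -0.14 in control cells, against -0.01 and 0.00 over all genes tested.

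Of 18 genes of NFAT, NF-kappaB and AP-1 factors and their regulators, 12 rose and 3 fell in each genotype, with a median log2 fold change of 0.98 in cKO and 0.77 in control cells. Fos, an AP-1 subunit, rose by 3.15 ± 0.24 in cKO and 2.73 ± 0.22 in control cells on the log2 scale (SE, edgeR adjusted p = 9.81e-09 and 2.12e-08). Nfkbia, which encodes the NF-kappaB inhibitor, rose by 2.64 ± 0.19 and 2.47 ± 0.18, and Rel, an NF-kappaB subunit, by 2.21 ± 0.17 and 2.05 ± 0.16, in cKO and control cells. Nfkbiz, a nuclear regulator of NF-kappaB, rose by 2.25 ± 0.18 and 2.20 ± 0.17. Nfatc2, Nfatc3 and Jund fell in both genotypes. Of 15 genes of the interferon gamma response 12 were tested: 3 rose and 4 fell in cKO cells, and 2 rose and 5 fell in control cells, with medians of -0.24 and -0.22. Over all genes tested 26.7% rose and 27.1% fell in cKO cells and 25.4% and 25.2% in control cells, so these counts do not set the list apart. Ifng rose by 6.21 ± 0.90 in cKO and 6.40 ± 0.88 in control cells, while its receptor gene Ifngr1 fell by 1.69 ± 0.17 and 1.74 ± 0.16 and the antiviral gene Mx1 by 2.30 ± 0.28 and 2.15 ± 0.26.

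Genes whose 4 group means of log2 CPM, each centred on its own average, came nearest to those of a ligand were found for the 3 ligands with the highest mean TPM. Nearest to Ccl3 were Pdpn (root mean square log2 difference 0.0476), Areg (0.153) and Slc7a2 (0.189). Nearest to Ccl4 were Csf2 (0.0625), which encodes the cytokine GM-CSF, Prkg1 (0.0636) and Tnip3 (0.0760). Nearest to Ccl5 were Rdx (0.00770), A630001O12Rik (0.00798) and Lars (0.0114). With 4 group means, such nearness over 15619 genes is a description only.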

How the data were processed

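RNA of 15 libraries was measured by sequencing of stranded, ribosomal RNA-depleted total RNA, per the labels' protocols. The authors deposited estimated counts per gene, unscaled between samples, of which 9.42% were not whole, and TPM values per gene, scaled for length within each library by the authors. The genome GRCm39 and the tools STAR 2.7.9a, cutadapt 3.4 and Salmon 1.10.1 are named per the submitters' processing notes. What each tool did is not given in the sources used here. Reads shared by similar genes are split by such estimates.

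Counts were rounded, filtered (filterByExpr, 15619 of 56748 genes kept), scaled by TMM and fitted over all libraries with edgeR 4.0.16 (robust quasi-likelihood, R 4.3.3), with two-sided tests, Benjamini-Hochberg adjusted over all tested genes, and a threshold of 0.05. The fit was tested on simulated data. CPM use the scaled library sizes. Intervals and floors of counts cover counting error only. The labels do not say that libraries came from separate animals, so p-values measure the spread between libraries, which may be technical. Alternatives were DESeq2 1.42.0, other scalings and filters, a replicate block, limma 3.58.1 on log2 of TPM plus 0.1 or 1, and leaving out each library.

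Replicate numbers were checked as pairs: correlations of deviations from group means were not all above 0.1 in any pair of groups, so the numbers were not treated as pairs. The members, the gene lists and the tests were chosen with earlier results of these data known. Named genes are the members, the detected other ligands, the 4 genes of smallest p in each list and a few chosen after their values were seen: marker genes, neighbours in the RefSeq GRCm38.p6 order, Ccr1, Ccr3, Nfatc2, Nfatc3, Jund and the genes at 0. Gene coordinates of the counts' own build were not used here. Some listed genes are not reported here and were left out of the counts of their lists.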

Additional observations from a re-analysis of the deposited data

Results flagged for a closer look

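In 20 gene and group combinations of 4 or 5 libraries, Dixon's test, which flags about 1 in 20 groups by chance, found a library far from the others for Ccl3 and Ccl22. Ccl3 in stimulated control replicate 4 was at 183 CPM, against 54.5 to 83.8 CPM in the other 4 libraries of that group. Ccl22 in stimulated control replicate 1 was at 15.1 CPM, against 0.100 to 3.90 CPM in the other 4. Ccl17 in stimulated cKO replicate 1 was at 0.0972 CPM, which is 2 counts, against 0 in the other 3 libraries. That value also met the test's limit, but with all others at 0 it would do so at any count, so it shows nothing about the library.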

How the results depend on the processing

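In the alternatives run, 6 or 7 members were called for stimulation in cKO cells and 5 to 7 in control cells, all higher, and 0 in the genotype comparisons and the interaction. The 5 came from leaving out non-stimulated control replicate 1, which moved Ccl5 to 0.71 (0.71 to 1.17 over libraries left out). Without a filter on low counts Xcl1 was tested and called in cKO (log2 fold change 3.32, edgeR adjusted p = 0.0306) and control cells (5.38, adjusted p = 0.00331). Depth limits Ccl17 and Cxcl10, and resting levels of Ccl1, Ccl9 and Cxcl2. DESeq2 called Ccl22 in control cells (3.45), where leaving out libraries gave 1.98 to 4.72.

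The replicate number could not be shown to pair libraries: deviations of same-numbered libraries correlated by -0.20 to 0.18 over all pairs of groups and by 0.0802 to 0.11 between the cKO groups, and 3 of 3 libraries matched their own number best between the cKO groups but 1 of 3 between the control groups. With the replicate block no member call changed, but some log2 differences changed sign. Ccl22 in cKO cells was -0.74 with the block and -0.995 with the block within genotype. The interaction was -0.0219 for Ccl4 with the block and 0.10 for Ccl3 with the block within genotype.

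On log2 of TPM plus 0.1, Ccl22 on stimulation of cKO cells was -0.32, the resting genotype differences were 0.0171 for Ccl4 and 0.00043 for Ccl5, and the interactions were -0.0204 for Ccl1, -0.20 for Ccl4 and -0.13 for Ccl5. With 1 added, the resting differences were 0.0107 and 0.00059 for Ccl4 and Ccl5, and the interactions -0.28, -0.19 and -0.13 for Ccl1, Ccl4 and Ccl5. TPM moved the median of all genes by 0.14 (plus 0.1) and 0.11 (plus 1) for stimulation in control cells, 0.15 and 0.12 for the resting genotype difference and -0.21 and -0.17 for the interaction. Relative to the median gene, the resting TPM differences of Ccl4 and Ccl5 were below 0.

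Leaving out single libraries turned the sign of several uncalled values. The stimulation response of Ccl22 in cKO cells ran from -0.90 to 0.76. Stimulated genotype differences ran from -0.56 to 0.0616 for Ccl3, -0.23 to 0.0624 for Ccl4, -0.20 to 0.10 for Ccl5, -0.45 to 0.0325 for Ccl9 and -0.10 to 0.47 for Cxcl2. Resting ones ran from -0.47 to 0.44 for Ccl3, -1.03 to 0.60 for Ccl4, -0.48 to 0.0848 for Ccl5 and -0.14 to 1.28 for Ccl9. Interactions ran from -0.29 to 1.95 for Ccl1, -0.82 to 0.0925 for Ccl3, -0.70 to 0.93 for Ccl4 and -0.18 to 0.38 for Ccl5. Over all genes, 1 was called for genotype after stimulation and 5 by DESeq2, 0 at rest and 4 by DESeq2 or 3 on TPM plus 1, and 0 for the interaction and 2 by either. The causes were not tested.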
